A study of Mus musculus with 3 samples.

Results

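The 9 genes described here, Sfrp1, Sfrp2, Sfrp4, Dkk2, Dkk3, Wif1, Apcdd1, Axin2 and Lef1, encode secreted or membrane inhibitors of Wnt signalling and genes that Wnt signalling switches on. They were chosen by name, and all 9 were among the 32285 genes of the count matrices. They were followed across the dermal and hair follicle cells of full-thickness dorsal skin in single-cell RNA-seq libraries from 3 groups of wild-type C57BL/6J mice, labelled female and 8 weeks old at the start. CON mice were not irradiated. UV mice were exposed on alternate days over 12 weeks to UVA (0.60 mW/cm2) together with UVB (3.5 mW/cm2). Rux mice received the same irradiation and, after each exposure, an ointment of 1.5% ruxolitinib, an inhibitor of the kinases JAK1 and JAK2. The paper that reported these data describes its CON and UV groups as given vehicle, which the sample labels do not state. Skin was taken 24 h after the last exposure. Each group was 1 library, and the number of mice behind a library is not given in the sources used here.

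The matrices held 13170, 12411 and 11287 barcodes in CON, UV and Rux, the order used for every list of 3 values below, and 50, 28 and 40 barcodes occurred in both CON and UV, both CON and Rux, and both UV and Rux. They summed to between 131570327 and 165337289 unique molecular identifiers (UMIs, counted mRNA molecules) per library. After filtering, 10777, 10231 and 9299 cells remained, with medians of 7549, 7669 and 9438 UMIs per cell. The sex in the labels was not what the counts showed. Xist was between 0.0922 and 0.119 counts-per-million (CPM) and the Y-linked Ddx3y between 110.4 and 121 CPM in all 3 libraries. With 1 library per group there is no replicate check. Ratios are therefore given without a test, and the 95% intervals beside levels, shares and ratios cover counting error only.

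Wnt proteins bind Frizzled receptors and Lrp co-receptors, which stabilises beta-catenin so that it can act with Tcf and Lef factors on target genes. Sfrp1, Sfrp2, Sfrp4 and Wif1 are secreted proteins that bind Wnt ligands, whereas Dkk2 acts on the Lrp co-receptors and Dkk3 is a divergent member of the Dickkopf family. Apcdd1 is a membrane protein that restrains Wnt signalling and is itself a target, Axin2 is a feedback target that acts in the complex degrading beta-catenin, and Lef1 is a nuclear partner of beta-catenin. In skin, Wnt signalling is known for starting hair growth, in which the dermal papilla signals to the hair matrix above it, and the papilla itself is known for making secreted Wnt inhibitors.

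On the mouse genome GRCm38 all 9 are protein-coding genes. Sfrp1 lies at chr8:23411502-23449632, Sfrp2 at chr3:83766321-83774316, Sfrp4 at chr13:19623104-19632994, Wif1 at chr10:121033960-121100650 and Axin2 at chr11:108920349-108950783, all on the plus strand. Dkk2 (chr3:132085292-132180304) and Lef1 (chr3:131110471-131224356) also lie on the plus strand and Dkk3 (chr7:112116017-112159057) on the minus strand. RefSeq promoter windows, running from 250 bases before to 50 bases after a start site on GRCm38.p6, were found for 5 of the 9 members, with 8 windows in all. The windows below belong to Dkk2, Wif1 and Lef1, the 3 members with a window whose level was highest in dermal papilla-like cells in every library. The shared core of the Tcf/Lef motif, CTTTG or its reverse complement CAAAG, is in capitals. Of the 4 windows of Lef1, the one shown (chr3:131156044-131156343) starts inside the gene and is the only one with a longer form of the motif, CTTTGTA read on the minus strand, and was chosen for it after the search. The other 2 windows are chr3:132085042-132085341 for Dkk2 and chr10:121033754-121034053 for Wif1.
Dkk2: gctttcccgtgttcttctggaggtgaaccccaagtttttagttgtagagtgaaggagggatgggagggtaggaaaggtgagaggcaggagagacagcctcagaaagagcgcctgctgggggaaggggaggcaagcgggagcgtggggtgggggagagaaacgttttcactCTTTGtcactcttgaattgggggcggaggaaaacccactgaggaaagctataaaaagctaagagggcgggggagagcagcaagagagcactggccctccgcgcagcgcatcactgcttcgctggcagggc
Wif1: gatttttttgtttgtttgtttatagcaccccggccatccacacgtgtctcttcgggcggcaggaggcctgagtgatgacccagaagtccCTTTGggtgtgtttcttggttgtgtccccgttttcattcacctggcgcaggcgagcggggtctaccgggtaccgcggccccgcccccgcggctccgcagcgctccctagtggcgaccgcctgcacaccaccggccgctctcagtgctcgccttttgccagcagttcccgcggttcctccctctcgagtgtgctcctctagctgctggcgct
Lef1: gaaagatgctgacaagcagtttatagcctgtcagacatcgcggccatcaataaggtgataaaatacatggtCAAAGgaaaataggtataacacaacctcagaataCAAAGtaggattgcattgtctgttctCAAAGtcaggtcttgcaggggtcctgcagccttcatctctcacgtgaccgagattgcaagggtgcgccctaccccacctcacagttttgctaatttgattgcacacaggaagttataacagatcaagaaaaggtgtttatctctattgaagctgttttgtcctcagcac
The core was present in 6 of the 8 member windows, those of Dkk2, Wif1 and Lef1, and absent from the windows of Sfrp2 and Axin2. It is a short motif, found on either strand in 53.9% of all 32851 windows. Of the longer forms, also searched on both strands, CTTTGAA was in 5.14% of all windows, the form CTTTGAT in 3.73%, the form CTTTGTA in 3.63% and the form CTTTGTT in 5.85%, and at least 1 of the 4 was in 16.9%. The Lef1 window above was the 1 member window with any of them. These matches describe letters only and were not tested for binding.

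Each member had its own place among the cell classes. FB-like cells (fibroblasts) numbered 3230, 4808 and 4481, dermal papilla-like cells 263, 296 and 107 and dermal sheath-like cells 117, 183 and 478. In the follicle epithelium, hair bulb-like cells numbered 1583, 1185 and 850, outer sheath-like cells 642, 224 and 184 and upper follicle-like cells 631, 387 and 422. Classes were named from marker genes other than the members, and the members were kept out of the genes used for clustering. Levels are UMIs summed over the cells of a class in a library and given as CPM of that sum.

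**Figure D1:**
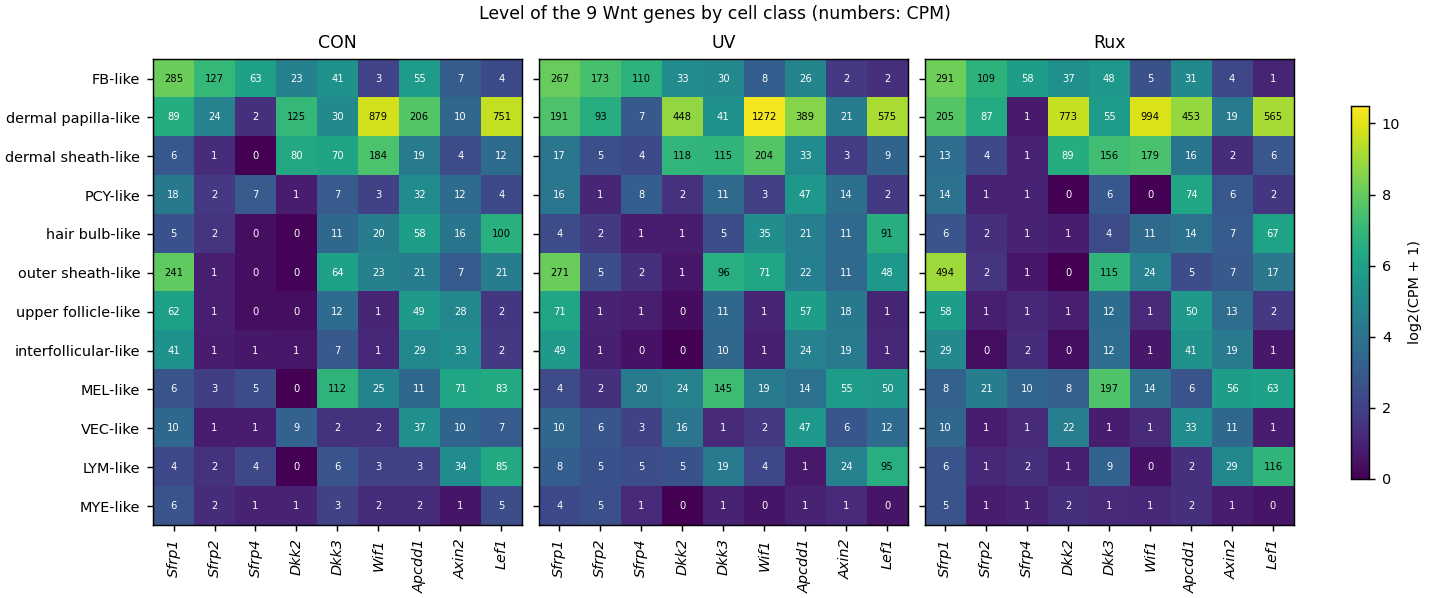
Level of each of the 9 members (across) in each cell class (down), with one panel for each of the CON, UV and Rux libraries. Numbers are CPM of UMIs summed over the cells of a class, and colours are log2(CPM + 1). Wif1, Lef1, Dkk2 and Apcdd1 are highest in dermal papilla-like cells in every library, Sfrp2 and Sfrp4 in FB-like cells, and Sfrp1 in FB-like and outer sheath-like cells.

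Among the proteins that bind Wnt ligands, Sfrp1 was at 285, 267 and 291 CPM in FB-like cells and at 241, 271 and 494 CPM in outer sheath-like cells. FB-like cells ranked above outer sheath-like cells in CON, the intervals of both classes overlapped in UV, and outer sheath-like cells ranked above in Rux. Sfrp1 was lower in dermal papilla-like cells, at 89.2, 191 and 205 CPM, and in upper follicle-like cells, at 62.2, 71.3 and 58.3 CPM. Sfrp2 was highest in FB-like cells in all 3 libraries, at 127, 173 and 109 CPM, ahead of dermal papilla-like cells at 24.3, 92.5 and 87.1 CPM. Sfrp4 was also highest in FB-like cells, at 63.0, 109.6 and 58.2 CPM, and the intervals of this class were clear of every other class in each library. In dermal papilla-like cells Sfrp4 rested on 10, 32 and 1 UMIs, and in the follicle epithelium as a whole on 23, 43 and 39 UMIs, so its level there is poorly defined.

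Wif1 stood out in dermal papilla-like cells, with 879, 1272 and 994 CPM, ahead of dermal sheath-like cells with 184, 204 and 179 CPM. Among the follicle epithelial classes the highest were outer sheath-like cells with 22.9, 71.5 and 23.9 CPM and hair bulb-like cells with 20.1, 34.7 and 11.4 CPM. Dkk2 followed the same order, with 125, 448 and 773 CPM in dermal papilla-like cells, 80.2, 118 and 88.6 CPM in dermal sheath-like cells and 23.0, 32.9 and 37.2 CPM in FB-like cells. The intervals of dermal papilla-like and dermal sheath-like cells did not overlap for either gene in any library. Dkk2 was scarce in the follicle epithelium, which as a whole held 8, 33 and 27 of its UMIs. Dkk3 was spread more widely. Its level was 69.7, 115 and 156 CPM in dermal sheath-like cells, 64.0, 95.9 and 115 CPM in outer sheath-like cells and 40.8, 29.7 and 47.7 CPM in FB-like cells, and the dermal sheath and outer sheath intervals overlapped in CON and UV but not in Rux.

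Of the target genes, Apcdd1, on chromosome 18, was highest in dermal papilla-like cells, at 206, 389 and 453 CPM, and reached 58.5, 21.2 and 14.1 CPM in hair bulb-like cells, 55.1, 26.3 and 30.9 CPM in FB-like cells and 48.5, 56.7 and 50.3 CPM in upper follicle-like cells. In CON these last 3 classes followed each other in that order with overlapping intervals for neighbours, whereas in UV and Rux the upper follicle ranked ahead of both others. Lef1 was at 751, 575 and 565 CPM in dermal papilla-like cells and at 100.2, 91.4 and 67.0 CPM in hair bulb-like cells, with the papilla clear of every other class in each library. Hair bulb-like cells were far more numerous, so they held 46.5%, 48.1% and 57.4% of all Lef1 UMIs against 42.3%, 40.1% and 25.6% in dermal papilla-like cells. Axin2 was low in all dermal and follicle classes. It reached 28.1, 17.7 and 12.6 CPM in upper follicle-like cells, 16.2, 11.1 and 7.39 CPM in hair bulb-like cells and 9.91, 20.5 and 19.1 CPM in dermal papilla-like cells.

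The classes also differed in how much of each member's RNA they held, which depends on cell numbers as well as levels. FB-like cells held 48.9, 72.6 and 81.2% of all Sfrp1 UMIs of a library, 79.2, 88.6 and 93.4% of those of Sfrp2 and 81.0, 90.2 and 90.3% of those of Sfrp4. Dermal papilla-like cells, at most 296 in a library, held 71.7, 70.3 and 42.8% of the Wif1 UMIs and 49.9, 52.0 and 30.4% of the Dkk2 UMIs. Dermal sheath-like cells held 5.33, 5.34 and 36.0% of the Wif1 UMIs, the largest share being in Rux. Outer sheath-like cells held 29.0, 18.1 and 9.03% of the Dkk3 UMIs and 32.2, 10.6 and 9.90% of those of Sfrp1, and hair bulb-like cells 41.1, 16.1 and 11% of those of Apcdd1.

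Free RNA in the droplets sets a floor for the low values. After each cell was thinned to 2000 UMIs, Sfrp1 was seen in 35.3, 32.6 and 36.1% of FB-like cells (57.4, 58.7 and 68.2% without thinning) and in 1.56, 1.32 and 0.95% of MYE-like (myeloid) cells, which should lack it. Lef1 was seen in 0.777, 0.327 and 0.253% of thinned FB-like cells (2.17, 1.21 and 1.03% unthinned), Wif1 in 0.680, 1.26 and 0.758% (1.58, 2.64 and 2.01% unthinned) and Axin2 in 1.17, 0.349 and 0.551% (4.06, 1.52 and 3.17% unthinned). In MYE-like cells these 3 genes rested on between 1 and 9 UMIs in a library, so they are set beside FB-like cells as CPM. Lef1 was at 4.66, 0.492 and 0.493 CPM in MYE-like cells and 4.16, 1.72 and 1.12 CPM in FB-like cells, with overlapping intervals in all 3 libraries, so it could not be told from background in FB-like cells at this depth. Wif1 was at 1.55, 0.492 and 1.23 CPM against 3.27, 7.68 and 5.11 CPM in FB-like cells, clear of it in UV and Rux but not in CON. Axin2 was at 0.517, 1.48 and 0.740 CPM against 7.48, 2.43 and 3.86 CPM, clear of it in CON and Rux but not in UV. Lef1 in dermal papilla-like cells was far above background, in 69.4, 53.7 and 47.1% of thinned cells (94.3, 81.1 and 78.5% unthinned). Median depths before thinning were 6060.5, 7320 and 9741 UMIs in FB-like, 12675, 8603.5 and 7985 in dermal papilla-like and 6576, 7478.5 and 8921 in MYE-like cells.

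By summed UMIs over FB-like cells, the secreted inhibitors Sfrp2 and Sfrp4 were higher in UV than in CON or Rux, and the targets Apcdd1 and Axin2 were highest in CON. Sfrp4 was at 63.0, 109.6 and 58.2 CPM, with log2 ratios of 0.80 (0.71 to 0.89) for UV over CON and -0.91 (-0.98 to -0.84) for Rux over UV, so that CON and Rux were close and UV stood above both. Sfrp2 followed the same order, with log2 ratios of 0.44 (0.38 to 0.51) and -0.67 (-0.72 to -0.61). Sfrp1 hardly differed, with log2 ratios of -0.10 (-0.14 to -0.05) and 0.13 (0.09 to 0.17). Apcdd1 was at 1178, 962 and 1512 UMIs and 55.1, 26.3 and 30.9 CPM, a log2 ratio of -1.07 (-1.19 to -0.94) for UV over CON and of 0.23 (0.11 to 0.35) for Rux over UV. Axin2 was at 7.48, 2.43 and 3.86 CPM, with ratios of -1.62 (-2.01 to -1.24) and 0.66 (0.30 to 1.05), lowest in UV as Apcdd1 was. Dkk2 was at 23.0, 32.9 and 37.2 CPM, lowest in CON, and Rux over CON came to 0.69 (0.55 to 0.84). Dkk3 was at 40.8, 29.7 and 47.7 CPM, lowest in UV, with -0.46 (-0.59 to -0.33) for UV over CON and 0.68 (0.58 to 0.79) for Rux over UV. Wif1 and Lef1 had UV over CON ratios of 1.22 (0.85 to 1.63) and -1.27 (-1.76 to -0.79), on 70, 281 and 250 and 89, 63 and 55 UMIs.

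Against a limit of 1.5-fold and at least 20 UMIs in the pair of libraries, 2 of the 9 members were higher and 3 lower in UV than in CON, where 29.5% of all genes passed the same limit in either direction. For Rux over UV, 2 members were higher and 4 lower (22.3% of all genes), and for Rux over CON 2 were higher and 3 lower (31.1% of all genes). Among the 6 members with a mean of at least 10 CPM, 1 was higher and 1 lower in UV than in CON, with 14.5% of all such genes past the limit. At this level 1 was higher and 2 lower in Rux than in UV (background 8.66%), and 1 was higher and 1 lower in Rux than in CON (background 17.6%). The 3 contrasts share libraries. For UV over CON the median log2 ratio was -0.10 over all 9 members and -0.10 over every gene that reached 10 CPM. Only 6 of the 9 members reached that level, so these medians cover unlike sets and are not a like-for-like comparison.

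Several FB-like ratios, but not all, changed with the subclusters counted and their weights. For UV over CON, Wif1 stayed past 1.5-fold under all 13 alternatives, between 0.99 and 1.49. Lef1, at background level in these cells, also did, between -1.27 and -0.89. A summed level cannot by itself tell fewer cells of a kind from less RNA per cell. When the 12 subclusters with at least 20 cells in every library (3230, 4796 and 4080 cells) were weighted as in CON, the UV over CON log2 ratio was -0.25 for Apcdd1, -0.38 for Axin2 and 0.29 for Sfrp4, none of them past 1.5-fold. Summed over the same cells without weights, these 3 ratios were -1.06, -1.61 and 0.80. The same weights turned UV over CON to -0.06 for Sfrp2 and to 0.22 for Dkk3, so that neither Sfrp2 above CON nor Dkk3 below CON held in UV. Without the 3 subclusters whose leading genes held more markers of another cell class than of fibroblasts, Rux over UV came to -0.44 for Sfrp2, -0.54 for Sfrp4 and 0.36 for Dkk3, and with weights as in CON to -0.12, -0.48 and 0.58, also within 1.5-fold. The markers that picked these 3 were Pecam1, then Dmkn and Sbsn, then Pparg and Postn. Their 6 fibroblast markers summed to 18627, 24409 and 19704 CPM, to 11710, 15373 and 13587 CPM and to 40364, 39009 and 29053 CPM. So few genes do not show that these cells belong to another class.

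Clustering the FB-like cells again, without the members among the variable genes, gave 13 subclusters in which the members sorted into different cells. Those named here were chosen after their values were seen. The subcluster led by Igfbp2 and Grem1 held 363, 61 and 257 cells, 11.2, 1.27 and 5.74% of FB-like cells. It contributed 74.7, 15 and 49.0% of all Apcdd1 UMIs and 61.2, 22.5 and 52.4% of all Axin2 UMIs of FB-like cells. Within it, Apcdd1 was at 241, 175 and 199.9 CPM and Axin2 at 26.8, 24.3 and 26.7 CPM, so that these cells were a smaller share in UV while their Apcdd1 and Axin2 levels were within 1.5-fold of CON, at log2 ratios of -0.46 (-0.73 to -0.21) and -0.12 (-0.92 to 0.56). Other members differed more inside this subcluster. Dkk2 was at 16.4, 115 and 295 CPM, a UV over CON log2 ratio of 2.81 (2.33 to 3.30) and a Rux over UV ratio of 1.35 (1.05 to 1.67), lowest in CON and highest in Rux. Sfrp2 was at 2.74, 65.5 and 161 CPM, with the same order of libraries, and Dkk3 was at 70.9, 125 and 161 CPM. In the same cells the 6 dermal sheath markers summed to 81.9, 223 and 202 CPM, the 8 follicle stem and outer sheath markers to 934, 1682 and 2607 CPM and the 8 papilla markers to 96.4, 60.7 and 127 CPM, and their part in these differences was not tested. The follicle stem and outer sheath sum was not particular to these cells. It was 1581, 3085 and 2413 CPM in the FB-like subcluster led by Pparg and Postn. In the one led by Tuft1 and Egfros it was 491, 556 and 811 CPM. Postn is itself 1 of the 8 markers on that list. In the subcluster led by Igfbp2 and Grem1, 3, 3 and 4 of the 8 were under 10 CPM. The part of each marker in the sum was not separated, so the sum alone does not show RNA of follicle cells. In Rux the subcluster led by Igfbp2 and Grem1 supplied 60.0% of the Dkk2 UMIs of FB-like cells, against 12.2% in CON and 7.90% in UV.

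A small subcluster led by Coch and Apela, 42, 99 and 63 cells, combined the highest FB-like levels of several members. Dkk2 reached 596, 799 and 979 CPM there, Apcdd1 569, 699.8 and 771 CPM and Wif1 112, 269.6 and 246 CPM. Axin2, at 42.6, 31.5 and 29.8 CPM, was also above its FB-like average, whereas Lef1 was at 7.74, 8.60 and 9.93 CPM, far from its dermal papilla level. These Lef1 levels rested on 2.25, 9.52 and 9.09% of the 89, 63 and 55 Lef1 UMIs of FB-like cells, too few to compare libraries. This subcluster was 1.30, 2.06 and 1.41% of FB-like cells and held 41.4, 66.9 and 49.6% of their Wif1 UMIs. Sfrp1, by contrast, was lowest here, at 19.4, 14.3 and 7.94 CPM. The 6 dermal sheath markers summed to 403, 727 and 634 CPM in these cells, against 45.7, 62.2 and 52.5 CPM over all FB-like cells. The 8 papilla markers summed to 252, 161 and 236 CPM, against 52.4, 37.4 and 57.6 CPM. Both sums were the highest of the FB-like subclusters in each library, and their part in these levels was not tested. The subcluster led by Nkain4 and Zfp804b, 136, 435 and 247 cells, had the highest Sfrp2 and Sfrp4 levels of the 13, with Sfrp2 at 867, 456 and 354 CPM, Sfrp4 at 417, 267 and 326 CPM and Sfrp1 at 425, 519 and 705 CPM. Inside it Sfrp2 was lower in UV than in CON, at a log2 ratio of -0.93 (-1.07 to -0.78), opposite to the sum over FB-like cells. Sfrp2 was low in the subcluster led by Thbs4, at 2.91, 18.1 and 13.9 CPM, while Sfrp1 there was at 207, 315 and 337 CPM.

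**Figure D2:**
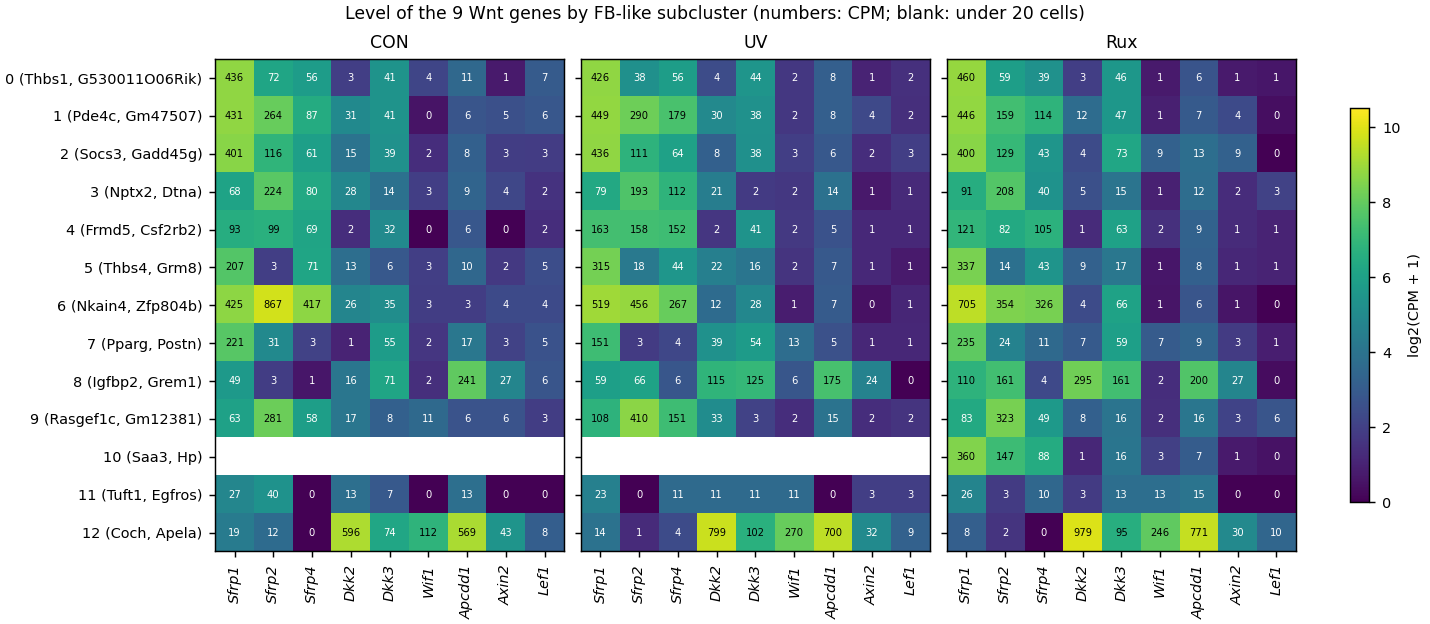
Level of each member (across) in each subcluster of FB-like cells with its leading genes (down), with one panel for each of the CON, UV and Rux libraries. Numbers are CPM of summed UMIs, colours are log2(CPM + 1), and subclusters under 20 cells in a library are blank. Apcdd1 and Axin2 levels are highest in the subclusters led by Igfbp2 and Grem1 and by Coch and Apela, and Sfrp2 and Sfrp4 levels in the one led by Nkain4. That one held 22.8, 18.1 and 12.5% of the Sfrp2 UMIs and 22.2, 16.7 and 21.6% of the Sfrp4 UMIs of FB-like cells. The Dkk2 level is highest in the subcluster led by Coch and Apela. In the one led by Igfbp2 and Grem1 the Dkk2 level is above that of all FB-like cells in UV and Rux but not in CON.

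In dermal papilla-like cells most members were higher in UV than in CON, and among those with a mean of at least 10 CPM the largest ratios were those of Sfrp2 and the Lrp antagonist Dkk2. Against the limit of 1.5-fold and at least 20 UMIs, 6 of the 9 members were higher in UV than in CON and none was lower. Among the 8 with a mean of at least 10 CPM 5 were past 1.5-fold upward. Of all genes at that level, 21.4% passed 1.5-fold in either direction and 12.0% upward. Dkk2 was at 125, 448 and 773 CPM on 708, 2115 and 1092 UMIs, with log2 ratios of 1.84 (1.71 to 1.96) for UV over CON and 0.79 (0.68 to 0.89) for Rux over UV. Each library was above the one before in the order CON, UV and Rux, and no interval overlapped another. Sfrp2 was at 24.3, 92.5 and 87.1 CPM, a UV over CON ratio of 1.93 (1.65 to 2.22), and the interval of Rux over UV included 0, with -0.08 (-0.39 to 0.21). Sfrp1, at 89.2, 191 and 205 CPM, also had UV and Rux together above CON, by 1.09 (0.94 to 1.25) for UV over CON. Apcdd1, at 206, 389 and 453 CPM, had ratios of 0.91 (0.81 to 1.02) and 0.22 (0.09 to 0.35), with CON lowest. Axin2 was at 9.91, 20.5 and 19.1 CPM on 56, 97 and 27 UMIs, and its UV over CON ratio was 1.04 (0.56 to 1.55), but 0.17 when every cell was given equal weight. The sixth member past the limit was Sfrp4, on the 10, 32 and 1 UMIs given above, with 1.89 (0.88 to 3.13) for UV over CON, and its Rux over UV ratio moved from -2.69 to -0.34 when doublets were kept.

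Wif1, Lef1 and Dkk3 did not pass the limit for UV over CON. Wif1 was at 879, 1272 and 994 CPM, with log2 ratios of 0.53 (0.48 to 0.59) and -0.36 (-0.44 to -0.27), so that UV was highest and all 3 libraries lay within 1.5-fold of each other. Lef1 was at 751, 575 and 565 CPM and was the only member of this class that was lower in both irradiated libraries than in CON, by a UV over CON ratio of -0.38 (-0.45 to -0.31), with Rux over UV at -0.03 (-0.14 to 0.09). Dkk3, at 30.3, 41.3 and 54.5 CPM, had ratios of 0.45 (0.14 to 0.75) and 0.41 (0.00 to 0.79). For Rux over UV 1 of the 8 more abundant members, Dkk2, was past the limit (background 16.3%). For Rux over CON 6 of 8 were past the limit upward and none downward (background 36.3%). The median log2 ratio of all 9 members was 1.04 for UV over CON, against -0.01 over every gene that reached 10 CPM, a level that 8 of the 9 reached.

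Other cell markers were looked at beside these values. The 6 fibroblast markers summed to 2564, 3087 and 1959.8 CPM in dermal papilla-like cells and to 34239, 25942 and 26669 CPM in FB-like cells, and the 8 papilla markers summed to 2965, 2935 and 2999.6 CPM in the papilla, with none at 0. In the papilla the fibroblast sum was highest in UV and lowest in Rux. The 6 dermal sheath markers summed to 619, 546 and 392 CPM in the papilla, the 8 MYE markers to 14.5, 21.8 and 50.3 CPM and the 6 VEC (vascular endothelial) markers to 69.2, 70.5 and 91.4 CPM. In FB-like cells the VEC markers summed to 27.3, 70.2 and 53.6 CPM, the MYE markers to 27.9, 18.5 and 19.5 CPM and the dermal sheath markers to 45.7, 62.2 and 52.5 CPM. Median depth per papilla cell was 12675, 8603.5 and 7985 UMIs, and Rux had the fewest such cells. The part of depth and of RNA of other cells in these differences was not tested.

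**Figure D3:**
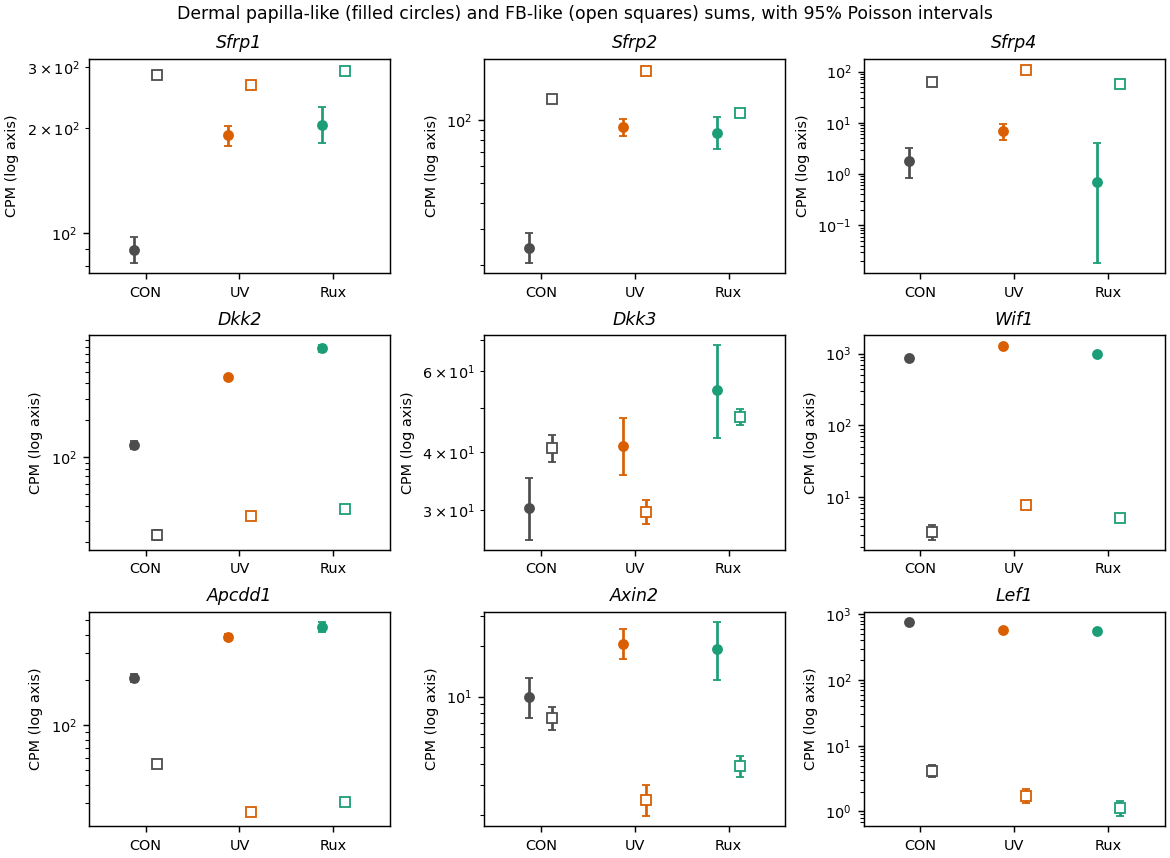
Level of each of the 9 members in dermal papilla-like and FB-like cells, in CPM on a log axis, for the CON, UV and Rux libraries (filled circles for the papilla, open squares for FB-like cells), with exact 95% Poisson intervals for counting error. Dkk2 in the papilla goes from 125 to 448 to 773 CPM, Wif1 stays between 879 and 1272 CPM, and Lef1 is 751 CPM in CON against 575 and 565 CPM.

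The dermal sheath wraps the follicle and contracts it. Dermal sheath-like cells were more numerous in Rux, and they carried Wif1, Dkk2 and Dkk3. Their 6 dermal sheath markers summed to 3561, 2849 and 2140 CPM. Their 6 fibroblast markers summed to 23863, 25069 and 18652 CPM, against 34239, 25942 and 26669 CPM in FB-like cells. The fibroblast list scored second in their cluster, at 3.73 against 4.69. Whether contractile fibroblasts outside the sheath are part of this class was not tested. Dkk3 was at 69.7, 115 and 156 CPM, with log2 ratios of 0.72 (0.42 to 1.03) and 0.43 (0.24 to 0.64), each library again above the one before. Dkk2 had ratios of 0.56 (0.27 to 0.85) and -0.42 (-0.63 to -0.20), with UV highest. Wif1 had 0.15 (-0.05 to 0.35) and -0.19 (-0.35 to -0.03), and the 3 libraries were close. Apcdd1 there rested on 39, 73 and 106 UMIs, with 0.74 (0.17 to 1.35) for UV over CON and -1.02 (-1.46 to -0.57) for Rux over UV. Sfrp1 had 13, 37 and 84 UMIs and a UV over CON ratio of 1.32 (0.41 to 2.39).

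Over the whole follicle epithelium, Wif1 was highest in UV and Apcdd1 was highest in CON. Of the 6 members with a mean of at least 10 CPM, 1 was higher and 2 were lower in UV than in CON, where 8.38% of all genes passed the limit, and none was higher and 2 were lower in Rux than in UV, where 4.38% did. Wif1 was at 18.4, 33.8 and 10.4 CPM, with log2 ratios of 0.88 (0.78 to 0.99) and -1.70 (-1.86 to -1.54). Apcdd1 was at 48.6, 26.5 and 20.9 CPM, with -0.87 (-0.97 to -0.78) and -0.35 (-0.48 to -0.22), lower in each library than in the one before. Lef1, at 69.4, 73.4 and 48.7 CPM, had 0.08 (0.02 to 0.14) and -0.59 (-0.67 to -0.51), with Rux lowest. Sfrp1, at 66.9, 43.5 and 61.8 CPM, had -0.62 (-0.70 to -0.55) for UV over CON. Only 1564, 979 and 839 of the 2856, 1796 and 1456 cells lay in the 7 subclusters with at least 20 cells in every library. Summed over those cells, Sfrp1 in UV over CON was 1.28, the opposite direction, and 0.15 when the 7 subclusters were also weighted as in CON. Apcdd1 in UV over CON was -0.62 and -0.36 in the same way, Wif1 in UV over CON 0.42 and 1.05, and Lef1 in Rux over UV -0.57 and -0.56. With equal weight per cell, over all cells of the class, Wif1 in UV over CON was 0.27.

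The hair bulb-like class holds the hair matrix and the layers it forms, and its makeup differed between libraries. Subclusters were assigned by the marker list with the highest mean score among lists with at least 3 detected markers. Hair matrix subclusters made up 82.9, 41.9 and 30.4% of the cells of the class. Inner root sheath subclusters made up 16.6, 53.4 and 59.5%, and inner bulge and companion subclusters 0.505, 4.73 and 10.1%. Some of these names are weak. The subclusters led by Glis3 (3, 289 and 208 cells) and Slc1a3 (4, 79 and 87 cells) scored highest for inner root sheath. None of its markers was among their leading genes. The same held for hair matrix in the subclusters led by Igkc (686, 87 and 19 cells) and B4galt6 (5, 213 and 107 cells). The hair matrix share also includes a subcluster of 68, 104 and 80 cells whose leading genes held the hair shaft markers Krt31 and Krt33a. No hair matrix marker was among its leading genes. Over the class, Apcdd1 was at 58.5, 21.2 and 14.1 CPM, with ratios of -1.46 (-1.58 to -1.35) for UV over CON and -0.59 (-0.78 to -0.41) for Rux over UV. Axin2 had -0.54 (-0.72 to -0.37) and -0.58 (-0.84 to -0.34), Lef1 -0.13 (-0.20 to -0.07) and -0.45 (-0.53 to -0.36), and Wif1 0.78 (0.66 to 0.91) and -1.61 (-1.80 to -1.43). All 4 were lowest in Rux. Among subclusters of at least 50 cells in every library, Lef1 was highest in the matrix subcluster led by Wnt5a and Cldn10, at 163, 267 and 174 CPM (554, 92 and 52 cells), and in a subcluster led by the keratin genes Krt31 and Krt36, at 268, 269 and 212 CPM (68, 104 and 80 cells), which also had hair matrix markers. The subcluster led by inner root sheath keratins, with 255, 265 and 211 cells, had Lef1 at 41.9, 36.0 and 30.6 CPM and Apcdd1 at 79.3, 21.1 and 16.9 CPM. Apcdd1 was highest in CON there too, but its cells also differed otherwise, with the 7 inner root sheath markers summing to 4062, 9835 and 14002 CPM, and the part of that difference was not tested. In the matrix subcluster led by Wnt5a, Apcdd1 was at 53.3, 38.8 and 13.3 CPM and Axin2 at 27.4, 26.8 and 12.4 CPM, and Wif1 at 23.3, 78.1 and 41.5 CPM was highest in UV, with 1.75 (1.48 to 2.01) for UV over CON. In the inner root sheath subcluster Wif1 was at 9.35, 3.94 and 1.39 CPM, with -1.23 (-1.92 to -0.60), lower in UV than in CON and so opposite to the class as a whole, and in the subcluster led by Krt31 and Krt36 it was at 14.2, 7.11 and 2.06 CPM, with -0.99 (-2.04 to 0.03).

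Outer sheath-like cells, which include the follicle stem cells, carried Sfrp1 and Dkk3. Sfrp1 was at 241, 271 and 494 CPM, with log2 ratios of 0.17 (0.08 to 0.26) and 0.87 (0.76 to 0.97), highest in Rux. Dkk3 had 0.58 (0.43 to 0.74) and 0.27 (0.07 to 0.46), with CON lowest. Lef1, at 20.8, 47.6 and 16.8 CPM, and Wif1, at 22.9, 71.5 and 23.9 CPM, were both highest in UV, with UV over CON ratios of 1.19 (0.95 to 1.43) and 1.64 (1.43 to 1.85) and Rux over UV ratios of -1.50 (-1.94 to -1.09) and -1.58 (-1.94 to -1.24). Apcdd1 was at 21.1, 22.2 and 4.54 CPM on 352, 117 and 16 UMIs, a Rux over UV ratio of -2.25 (-3.14 to -1.53). Different subclusters made up this class. The one led by Sorcs3 and Chat had the highest Sfrp1, 1000.4, 517 and 1081 CPM in 151, 33 and 14 cells, and Dkk3 at 240.5, 191 and 286 CPM. The one led by Hsd11b2 and Pi15 held 434, 42 and 5 cells, with Sfrp1 at 188, 112 and 223 CPM, and the one led by Kcnb2 and Tll1 held 1, 18 and 91 cells. In the subcluster led by Krtap17-1 and Nppc, 56, 131 and 74 cells, Sfrp1 was at 219, 301 and 553 CPM and again highest in Rux, whereas Wif1 at 138, 94.5 and 60.6 CPM was highest in CON, with -0.54 (-0.82 to -0.26) for UV over CON, opposite to the class ratio. Lef1 in that subcluster had 0.38 (-0.10 to 0.90) for UV over CON, within 1.5-fold.

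Upper follicle-like cells had Axin2 at 28.1, 17.7 and 12.6 CPM, with log2 ratios of -0.66 (-0.99 to -0.35) and -0.49 (-0.89 to -0.10), highest in CON. Apcdd1 in the same cells, at 48.5, 56.7 and 50.3 CPM, had 0.22 (0.03 to 0.42) and -0.17 (-0.38 to 0.03), and Sfrp1 had 0.20 (0.02 to 0.37) and -0.29 (-0.47 to -0.10), so neither differed by more than 1.5-fold when summed over the class. Within the class, Sfrp1 was at 236, 246 and 128 CPM in the subcluster led by Wfdc18 and Pcp4 and at 23.6, 27.8 and 18.2 CPM in the one led by Aldh3a1, whereas Apcdd1 was at 12.7, 1.97 and 3.22 and 74.2, 74.9 and 95.2 CPM in the same pair. For Rux over UV, Sfrp1 in this pair was at -0.95 (-1.15 to -0.74) and -0.61 (-1.12 to -0.13), both past 1.5-fold. In the subcluster led by Cst6 and Flg it was at 0.44 (-0.59 to 1.60). The subcluster led by Wfdc18 and Pcp4 held 97, 113 and 192 cells and the one led by Aldh3a1 278, 187 and 134.

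**Figure D4:**
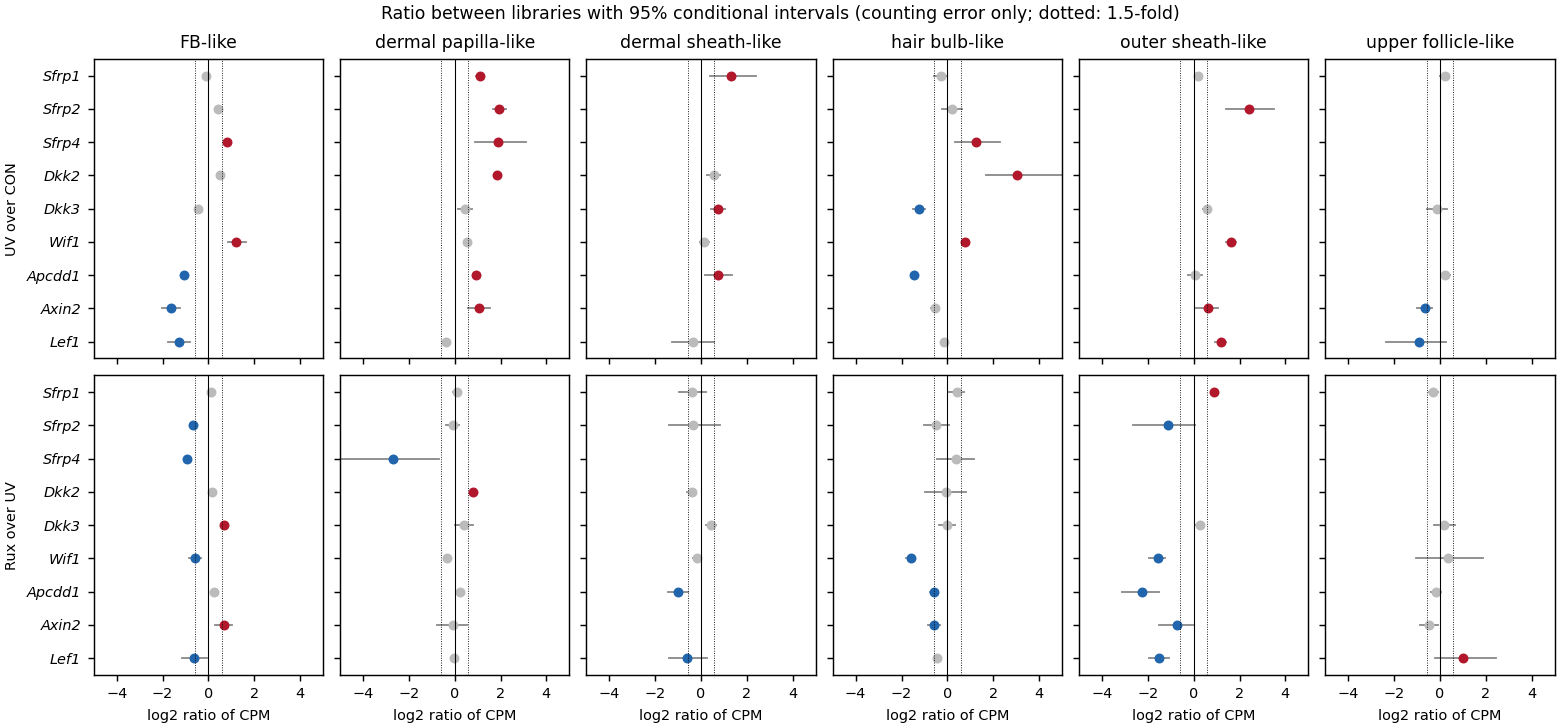
Log2 ratios of the members in each dermal and follicle class for UV over CON and Rux over UV, with exact 95% intervals for counting error, cut at 5 on either side, and members under 20 UMIs left out. Red and blue points are past 1.5-fold (dotted lines) and grey points are not. Most members lie above 0 for UV over CON in dermal papilla-like cells, where Dkk2 is at 1.84 and Lef1 at -0.38, while Apcdd1 is at -1.07 in FB-like and -1.46 in hair bulb-like cells. Values of FB-like and hair bulb-like cells are sums over subclusters whose shares differed between libraries.

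The other genes of the pathway were read from a list of 77. For UV over CON, 39 reached a mean of 10 CPM in FB-like cells, of which 3 were higher and 6 lower (14.5% of all genes past the limit), and their median log2 ratio was -0.22 against -0.10 over all genes. The highest were the ligand Wnt2 (1.54), the R-spondin Rspo3 (1.35) and the target Cd44 (0.80), and the lowest the targets Ccnd1 (-1.75, from 95.3 to 28.3 CPM) and Nkd2 (-1.32) and the kinase Gsk3a (-0.90). For Rux over UV 37 were measured, none was higher and 2 were lower (background 8.66%), Rspo3 (-1.21) and Wnt2 (-0.92), which like Sfrp4 were highest in UV. Wnt2 was among the leading genes of a cluster of FB-like cells that held 126, 1084 and 351 cells. Ratios of the list were not computed again with subclusters weighted as in CON, so the part of cell makeup in them was not tested. In FB-like cells the most abundant genes of each family were, in CPM, the ligands Wnt5a (33.0, 19.1 and 18.2) and Wnt11 (20.2, 22.2 and 25.9), Wls (125, 93.3 and 89.5) and Porcn (7.67, 6.67 and 7.60) for secretion, and the R-spondins Rspo1 (17.4, 14.0 and 10.0) and Rspo3 (7.71, 19.7 and 8.50). The receptors Lrp6 (133, 140.1 and 125) and Ryk (94.3, 81.6 and 95.8), the transducers Ctnnb1 (188, 173 and 159.7) and Gsk3b (105, 109 and 115) and the nuclear factors Tcf7l2 (133, 113 and 124) and Tcf7l1 (101, 106 and 95.9) were present throughout. The targets were led by Cd44 (685, 1191 and 1311) and Myc (307, 211 and 157), and the other secreted inhibitors were scarce, with Draxin (3.08, 1.45 and 3.72) and Sostdc1 (2.15, 1.07 and 0.552) the most abundant.

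In dermal papilla-like cells 54 genes of the list were measured for UV over CON, of which 11 were higher and 5 lower (background 21.4%), with a median of 0.13 against -0.01 over all genes. Rspo4, an R-spondin that strengthens Wnt signalling, was highest (4.53, from 2.48 to 59.1 CPM), followed by the secreted Wnt deacylase Notum (1.71, from 34.0 to 111 CPM) and Wnt11 (1.58). Draxin (-2.57), Wnt16 (-1.96) and Rspo1 (-1.04, from 431 to 209 CPM) were lowest. For Rux over UV 7 of 55 were higher, led by Lgr6 (0.89), Ror1 (0.82) and Fzd1 (0.82), and 6 were lower, led by Ccnd1 (-1.22), Myc (-0.95) and Ctnnbip1 (-0.81), where 16.3% of all genes passed. In the follicle epithelium 1 of 47 was higher in UV than in CON, the receptor Fzd5 (0.75), and 9 were lower, led by Kremen2 (-1.07), Fzd2 (-1.01) and Wnt6 (-0.87), with a median of -0.34 against -0.07 and a background of 8.38%. For Rux over UV 2 of 46 were higher, Fzd4 (1.08) and Wnt11 (0.85), and 2 were lower, Wnt5a (-0.67) and Lgr6 (-0.59), against a background of 4.38%.

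The members' patterns over cell classes were compared over 49 class-by-library sums of at least 50 cells, which share 3 libraries, as Pearson correlations of log2(CPM + 1), given as a description. Among the members, Dkk2 and Wif1 (0.71), Wif1 and Lef1 (0.69) and Sfrp2 and Sfrp4 (0.66) were most alike. Over 35 sums of FB-like subclusters, Dkk2 and Axin2 (0.77), Apcdd1 and Axin2 (0.76) and Dkk2 and Apcdd1 (0.69) went together, and Sfrp1 and Wif1 (-0.62) and Sfrp4 and Apcdd1 (-0.62) went opposite ways. Among 15424 genes, the patterns most like that of Wif1 were those of St8sia2 (r = 0.86), Mkx (r = 0.85) and Nog (r = 0.85), and those most like Dkk2 were Masp1 (r = 0.91), Gm45338 (r = 0.90) and Fgf10 (r = 0.89). For Lef1 they were Tcf7 (r = 0.82), 6330403K07Rik (r = 0.78) and Traf4 (r = 0.76), for Apcdd1 Rbfox2 (r = 0.77), Pls3 (r = 0.77) and Cachd1 (r = 0.74) and for Axin2 Ap1ar (r = 0.75), 2810001G20Rik (r = 0.75) and Etaa1 (r = 0.74). For Sfrp1 they were Rims1 (r = 0.78), Nlgn1 (r = 0.73) and Gas1 (r = 0.72), for Sfrp2 Plcxd3 (r = 0.85), 1700036A12Rik (r = 0.82) and Pappa2 (r = 0.81), for Sfrp4 Ptgis (r = 0.81), Kctd16 (r = 0.81) and Neto1 (r = 0.79) and for Dkk3 Col12a1 (r = 0.86), Col16a1 (r = 0.83) and Pygo1 (r = 0.82).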

How the data were processed

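Droplet-based 3′ single-cell RNA-seq libraries of full-thickness dorsal skin were made from CON, UV and Rux mice, 1 library per group. The authors deposited counts, whole numbers of UMIs per gene and barcode, after filtering to cell barcodes on mm10. Cell Ranger 6.1.2 is named in the submitters' processing notes, whereas the file headers name version 7.0.0. Such 3′ counts do not scale with transcript length, and intervals of counts cover counting error only.

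Barcodes under 200 detected genes or over 10% mitochondrial UMIs were dropped, and the highest Scrublet scores were removed at 0.8% per 1000 barcodes (scanpy 1.11.5). Clustering used Seurat 5.3.0 with 2000 variable genes that left out the 9 members and the 77 Wnt pathway genes, 30 principal components and a resolution of 1.5, and 20 principal components with resolutions of 0.5 for FB-like and 0.8 for epithelial cells. Clusters were named from marker lists, needing at least 3 detected markers. A cluster of the first clustering stayed unnamed when a list of another group scored within 1.0 of the best. One of few UMIs also stayed unnamed when none of its markers was among its leading genes. UMIs were summed per class and library with scipy 1.17.1, and ratios had 0.5 UMIs added to each sum. Intervals were exact Poisson for levels, Clopper-Pearson for shares and exact conditional for ratios, at 95%, and no statistical test was run. A difference was counted from 1.5-fold with at least 20 UMIs in both libraries together. The calculation was tested on simulated data. For shares of cells with a UMI, each cell was thinned to 2000 UMIs and shallower cells were left out.

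Genes named besides the members were, from the pathway list, the 3 highest and 3 lowest ratios past 1.5-fold with a mean of at least 10 CPM in FB-like, dermal papilla-like and follicle epithelium cells, the 2 most abundant of each family in FB-like cells, and the 3 genes most correlated with each member. The members and lists were chosen with earlier results of these data known. Alternatives changed the cell filters, doublet removal, resolution, scaling, weights of cells and subclusters, the subclusters used, genes in the totals and the minimum of UMIs.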

Additional observations from a re-analysis of the deposited data

Results flagged for a closer look

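Some members were past 1.5-fold in one direction in 1 cell class and in the other direction in another class of the same libraries. Each class gives 1 value per library, so none of these differences between classes was tested. Apcdd1 for UV over CON was at a log2 ratio of 0.91 in dermal papilla-like cells and -1.46 in hair bulb-like cells, on 1165 and 1837 UMIs in the papilla and 2718 and 758 UMIs in the bulb of CON and UV. The bulb value sums subclusters whose shares differed between libraries. Within them the Apcdd1 ratio was -1.91 in the one led by inner root sheath keratins and -0.63 in the one led by Igkc. It was -0.45 in the one led by Wnt5a and -0.44 in the one led by Krt31 and Krt36, both within 1.5-fold. Axin2 for UV over CON was at 1.04 in dermal papilla-like cells and -1.62 in FB-like cells. Neither passed 1.5-fold under every alternative, since the papilla value was 0.17 with equal weight per cell and the FB-like value was -0.38 with subclusters weighted as in CON. For Rux over UV Axin2 was at 0.66 in FB-like cells and -0.73 in outer sheath-like cells, the last on 58 and 23 UMIs in UV and Rux. Lef1 for UV over CON was at 1.19 in outer sheath-like cells and -1.27 in FB-like cells, where its level had intervals overlapping those of MYE-like cells in each library. Different subclusters made up the outer sheath-like class in each library. In the one led by Krtap17-1 and Nppc the Lef1 ratio was 0.38 (-0.10 to 0.90), within 1.5-fold. Dkk3 for UV over CON was at 0.72 in dermal sheath-like cells and -1.22 in hair bulb-like cells, a class made mostly of different subclusters in CON and UV.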

How the results depend on the processing

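No paired analysis was possible because each group was 1 library. Of the alternative values of the log2 ratios, 646 lay within the interval of the main value and 186 moved further, and ratios past 1.5-fold changed sign 5 times. Ratios not past it changed sign 34 times. The 646 include values that could not move. Dropping the minimum of UMIs changes no ratio, and a resolution of 0.8 gave the same 263, 296 and 107 dermal papilla-like cells. In FB-like cells 2 alternatives used the same 3230, 4796 and 4080 cells, so they count the same ratios again. With subclusters weighted as in CON, Wif1 in FB-like cells for Rux over UV reversed to 0.14, Axin2 in FB-like cells for Rux over CON to 0.31, Sfrp1 in the follicle epithelium for UV over CON to 0.15 and Wif1 there for Rux over CON to 0.15. Of the changes of sign below 1.5-fold, the same weights turned UV over CON in FB-like cells to 0.15 for Sfrp1, -0.06 for Sfrp2 and 0.22 for Dkk3 and Rux over CON in the follicle epithelium to 0.24 for Dkk3, and equal weight per cell turned Rux over UV in dermal papilla-like cells to -0.09 for Dkk3, 0.10 for Wif1 and 0.62 for Axin2. The number of members past 1.5-fold in FB-like cells with subclusters weighted as in CON was 3 for UV over CON (5 by summed UMIs) and 2 for Rux over UV (6 by summed UMIs), and in the follicle epithelium, where these weights use 1564, 979 and 839 of the cells of CON, UV and Rux, it was 2 for UV over CON (5 by summed UMIs). With equal weight per cell it was 2 for Rux over CON in FB-like cells (5 by summed UMIs) and 3 for UV over CON in the follicle epithelium. Weighting could not be run for dermal papilla-like cells, which were not divided into subclusters, and the papilla count for UV over CON was 6 or 7 under the alternatives run. Chosen after seeing the data, leaving out the 3 subclusters whose leading genes held more markers of another class than of fibroblasts gave 3 members for Rux over UV in FB-like cells. Adding the low-UMI fibroblast cluster or leaving out the subcluster with over 90% of its cells from Rux, also chosen after seeing the data, kept every count within 1.5 times. Summing without weights over the cells that the weights use, also chosen after seeing the data, kept every count within 1.5 times (4 for UV over CON in the follicle epithelium) and reversed Sfrp1 there for UV over CON to 1.28. With 20 UMIs in place of 10 CPM, the pathway list had 26 genes past 1.5-fold in FB-like cells for UV over CON (9 before) and 12 for Rux over UV (2 before), and in the follicle epithelium 24 (10 before) and 14 (4 before). Thinning moved 80 of 81 shares of cells. The cause of these shifts was not tested beyond what each alternative changes by construction. Members under 20 UMIs, among them Sfrp4 and Dkk2 in outer sheath-like and upper follicle-like cells, could not be compared at this depth.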

Other observations

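Melanocyte-like and lymphocyte-like cells, which are neither dermal fibroblasts nor follicle epithelium, also carried some of these genes. In MEL-like cells (160, 67 and 37 cells in CON, UV and Rux) Dkk3 was at 112, 145 and 197 CPM, Axin2 at 71.3, 55.1 and 56.2 CPM and Lef1 at 82.8, 49.7 and 63.3 CPM. Axin2 in CON and UV was higher there than in any other class, with intervals that did not overlap those of the next class. In LYM-like cells Lef1, known from T cells, was at 85.4, 95.2 and 116 CPM and Axin2 at 33.5, 24 and 29.0 CPM. Interfollicular cells had Axin2 at 33.5, 19.4 and 18.6 CPM, with CON highest. Apcdd1 was at 32.2, 47.5 and 74.1 CPM in PCY-like cells (pericytes) and at 37.2, 46.8 and 33.2 CPM in VEC-like cells. Dkk2 was at 8.81, 16.3 and 21.6 CPM in VEC-like cells. These classes were not chosen for comparison between libraries, and MEL-like cells in Rux were under the minimum of 50 cells.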
